A study of Mus musculus with 9 samples.

Results

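The ductal and progenitor markers of the liver followed here are 10 genes: Sox9, Krt7, Krt19, Krt23, Epcam, Spp1, Cd24a, Prom1, Krt8 and Krt18. They mark bile duct epithelium, liver progenitor cells or, for the last pair, simple epithelium in general. They were taken by symbol from the 55401 genes of the count table, as a list drawn up with earlier results of these data known, and all 10 were among the 15717 genes that passed the filter on low counts. Their RNA was followed in whole livers of 3 groups of female mice, 3 livers per group. Mice were obtained at 6 weeks of age, and healthy mice, whose age at harvest is not given in the sources used here, received neither oncogenes nor virus. Untreated HCC mice received myristoylated AKT and activated Nras in Sleeping Beauty transposon plasmids by hydrodynamic tail vein injection, and 1 week later an adeno-associated virus of serotype 8 (AAV8) with no insert. miR-22-treated HCC mice received the same plasmids and AAV8 carrying miR-22. Livers with hepatocellular carcinoma (HCC) were taken 5 weeks after the oncogenes, 4 weeks after the virus.

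Several features limit the groups as models. The AKT plasmid uses the EF1α promoter and the miR-22 vector a CMV promoter, neither of which is specific to hepatocytes. The protocol text also lists a β-catenin plasmid, whereas the series is described as a RAS/AKT model. The strain field of the labels gives C57BL/6 and the protocol FVB/N. Since healthy mice had no injection at all, the effects of tumor formation, plasmid injection and virus cannot be told apart in the comparison with healthy liver. Each value comes from bulk tissue, so fewer cells of a type and less RNA per cell cannot be told apart. The labels do not say which livers were processed together. Each p-value rests on the spread between libraries within groups, estimated jointly over all 3 groups. A liver outside a comparison can therefore move its p-value.

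The total count was 18258660 to 20964551 in the healthy libraries, 18293676 to 23908392 in the untreated HCC libraries and 16664659 to 20459853 in the miR-22-treated ones. Levels are given as CPM, a gene's counts scaled to a common library size with trimmed-mean (TMM) factors. Akt1, the gene of the injected kinase, stood at 105 ± 2.96 CPM (SD, n = 3) in healthy livers, 1486 ± 275 in untreated HCC and 858 ± 223 in miR-22-treated HCC; these reads may join those of the mouse gene and of the plasmid. RNA of pancreatic acinar cells stood out in 1 library. The summed level of 10 acinar genes was 467 CPM in miR-22-treated replicate 2 and 19.9 to 44.8 CPM in the other 8. Amy2a5 was at 0 in every library. Without Cela1, which made up most of the sum elsewhere, it was 397 CPM in that library. It was then 14.3 CPM in untreated replicate 4, 3.94 CPM in untreated replicate 2 and 0.275 to 1.59 CPM in the remaining livers. Untreated replicate 4 held 53 Prss2 and 56 Cpa1 counts, and healthy livers held 0. The part of pancreatic tissue in the marker levels was not tested. Counts of called markers, and of list genes called lower with miR-22, are therefore also given without miR-22-treated replicate 2.

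In healthy liver, hepatocytes make up most of the tissue and carry only 1 pair of intermediate filament keratins, keratin 8 with keratin 18. The cholangiocytes that line bile ducts add keratins 7, 19 and 23, the transcription factor SOX9, which helps to form the ducts in the embryo, the adhesion molecule EPCAM and the secreted phosphoprotein osteopontin, the product of Spp1. After chronic injury, ducts and small cells at their ends multiply, a process called the ductular reaction. Hepatocytes can themselves switch on Sox9 and Spp1 under injury or oncogene expression, and CD24 and CD133, the latter the product of Prom1, are widely used surface markers of liver progenitor and tumor-initiating cells.

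miR-22 was the treatment, so its mature sequence is shown, from RefSeq, with the seed (bases 2 to 8, the part that pairs with targets) in capitals.
miR-22-3p: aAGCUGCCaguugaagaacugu
The DNA letters that pair with the whole seed are GGCAGCT. They occurred in the 3′ UTR of 0 of the 10 markers, taking each gene's canonical transcript in GENCODE vM39. Among protein-coding genes they occurred in 2928 of 20827 3′ UTRs (14.06%). The markers' 3′ UTRs ran from 66 bases in Krt18 to 2648 in Krt7, and a short one has less room for a match. This says only that these 7 letters are not in those windows.

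The 250 bases before a RefSeq start (GRCm38.p6, 5′ to 3′) are shown for Spp1, the marker with the largest change, and for Krt8 and Krt18, the neighbouring pair that changed together. Capitals mark matches to the letters searched.
Spp1 chr5:104434861-104435110 (+ strand): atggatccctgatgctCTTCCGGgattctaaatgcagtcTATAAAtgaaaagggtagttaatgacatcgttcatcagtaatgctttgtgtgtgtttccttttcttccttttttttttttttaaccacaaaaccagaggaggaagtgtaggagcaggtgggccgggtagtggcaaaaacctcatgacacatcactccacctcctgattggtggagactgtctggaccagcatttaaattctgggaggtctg
Krt8 chr15:102004343-102004592 (- strand): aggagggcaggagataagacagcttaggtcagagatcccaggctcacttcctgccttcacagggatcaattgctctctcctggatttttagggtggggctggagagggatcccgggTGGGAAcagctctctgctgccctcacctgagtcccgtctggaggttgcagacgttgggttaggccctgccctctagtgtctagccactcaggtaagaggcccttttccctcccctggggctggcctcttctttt
Krt18 chr15:102027966-102028215 (+ strand): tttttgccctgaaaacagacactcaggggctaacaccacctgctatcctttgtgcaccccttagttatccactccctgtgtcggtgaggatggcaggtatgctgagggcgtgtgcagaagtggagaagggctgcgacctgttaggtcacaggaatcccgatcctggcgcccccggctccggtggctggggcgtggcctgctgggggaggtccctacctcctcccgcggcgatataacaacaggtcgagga
Promoters were listed for 7 of the 10 markers, all but Sox9, Krt19 and Cd24a. Both strands were searched for 7 letter patterns: AP-1 (TGANTCA), TEAD (ACATTCC), ETS (CCGGAAG), RBPJ (TGGGAA), SOX (ACAATG), the TATA box (TATAAA) and the GC box (GGGCGG). Spp1 and Prom1 each had 2 RefSeq starts. The Spp1 window shown is that of its first start, and the window of its second start held none of the 7 patterns. In the window shown the capitals are an ETS match, written on the other strand as CTTCCGG, and a TATA match, patterns found in 6.907% and 12.37% of the 32851 windows of that length. In the Krt8 window they are an RBPJ match, found in 21.59% of all windows, and the Krt18 window held none of the 7 patterns. Among the other markers, Prom1 held AP-1 letters (6.749% of windows) and, in 1 of its windows, RBPJ letters, Krt23 SOX letters (10.69%), and Epcam, Krt7 and Prom1 the GC box (32.74%). No marker held the TEAD letters, which 3.254% of windows did. A match is a description of letters and not evidence of a bound factor.

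Most of the markers were far more abundant in untreated HCC than in healthy liver, and lower, though still well above healthy liver, in miR-22-treated HCC. A gene was called at an adjusted p under 0.05 (edgeR quasi-likelihood F test, Benjamini-Hochberg over all tested genes) together with a fold change over 1.5. In untreated HCC against healthy liver, 9 of 10 markers rose, from 2.93-fold for Krt18 to 173-fold for Spp1, where 22.7% of all tested genes were called higher. Krt19 was the marker not called. In miR-22-treated against untreated HCC, 6 of 10 fell (Sox9, Krt23, Spp1, Cd24a, Epcam and Krt18), where 5.47% of all tested genes were called lower. That background fell to 3.51%, 3.00% and 2.56% without untreated replicate 2, untreated replicate 3 and treated replicate 3, where 5, 6 and 5 markers were called lower. Only 1 marker, Sox9, was still called lower when the test itself asked for a fold beyond 1.5 (glmTreat), where 0.35% of all genes were. In miR-22-treated HCC against healthy liver, 8 of 10 were higher, where 16.9% of all genes were, and Krt7 and Krt19 were not called. By glmTreat 6 of 10 were higher, where 10.9% of all genes were. The 3 comparisons share libraries, so these counts are not independent of each other.

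The median log2 fold change of the 10 markers was 2.48 between untreated HCC and healthy liver, beside 0.012 over all tested genes. It was -0.92 between miR-22-treated and untreated HCC, beside 0.002, and 1.55 between miR-22-treated HCC and healthy liver, beside 0.022. The 3 libraries of each group did not overlap for 9 markers in the first comparison, 9 in the second and 8 in the third, where 65.3%, 39.3% and 48.8% of all tested genes did not. The counts of called markers were the same 9, 6 and 8 without miR-22-treated replicate 2, the library with the most acinar RNA. In that fit 22.5%, 4.31% and 15.8% of all tested genes were called in those directions. They were also 9, 6 and 8 without untreated replicate 4, where 22.4%, 5.83% and 16.5% of all tested genes were called.

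**Figure D1:**
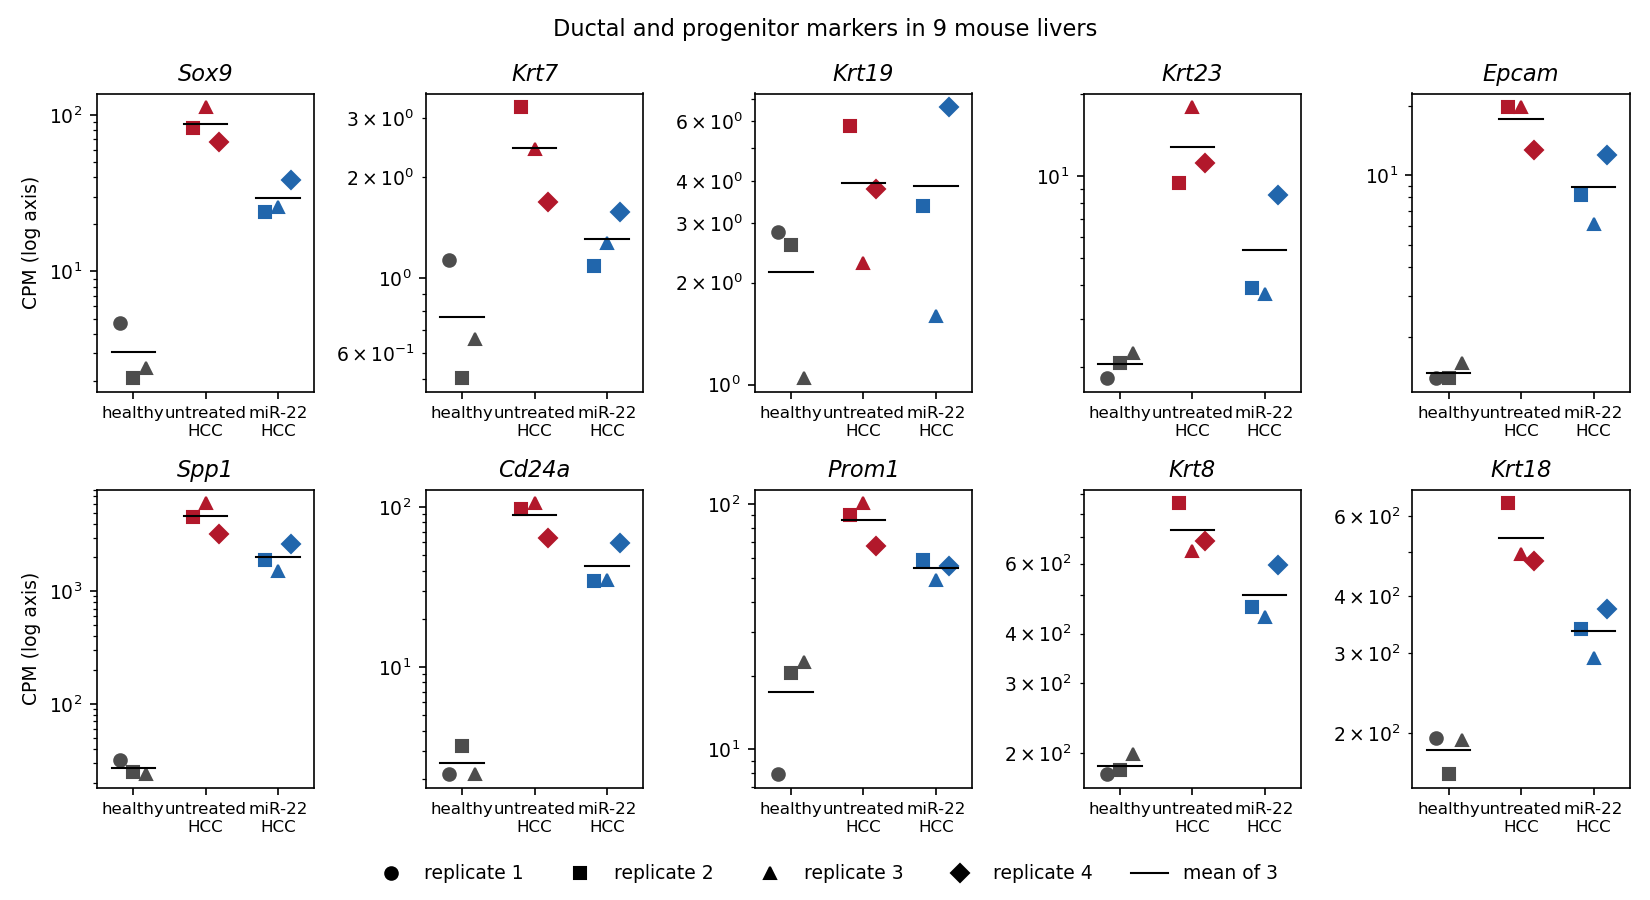
Level of each marker in every library, in TMM-scaled CPM on a log axis that differs between panels. Points are livers, their shape the replicate number, and lines the mean of 3. In every panel except Krt19 the untreated HCC livers sit above both other groups, with Spp1 at 3239 to 6077 CPM against 23.7 to 31.9 in healthy liver.

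Sox9 (chr11:112673009-112678586, plus strand, GRCm39) encodes the transcription factor at the head of the duct program. Its level was 4.65, 2.08 and 2.42 CPM in the healthy livers, 82.3, 112 and 66.8 CPM in untreated HCC and 23.8, 25.8 and 38.2 CPM in miR-22-treated HCC. The 3 groups did not overlap, and the treated livers lay between the others. Sox9 rose by a log2 fold change of 4.84 (SE 0.298) in untreated HCC, or 28.6-fold (adjusted p = 8.3e-08). It fell by 1.57 on the log2 scale (SE 0.237) with miR-22, to 33.7% of the untreated level (adjusted p = 0.00088), and this was the marker with the largest fall. Treated livers were still 9.66-fold above healthy liver (adjusted p = 4.9e-06). When the test asked for a fold change beyond 1.5 (glmTreat) instead of beyond 1, Sox9 was the only marker still called lower with miR-22 (adjusted p = 0.011).

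In normal liver, keratins 7, 19 and 23 belong to ducts. Krt23 (chr11:99366873-99383963, minus strand), a type I keratin, stood at 1.82, 2.08 and 2.25 CPM in healthy liver, 9.42, 17.9 and 11.2 CPM in untreated HCC and 3.89, 3.70 and 8.51 CPM in miR-22-treated HCC. The treated livers were spread, with replicate 4 near the lowest untreated liver. Krt23 rose 6.22-fold in untreated HCC (log2 2.64, SE 0.347, adjusted p = 3.4e-05) and fell by 1.24 on the log2 scale (SE 0.312, adjusted p = 0.013) with miR-22. That fall lost its call without untreated replicate 3 (-0.93, adjusted p = 0.074) or without treated replicate 3 (-1.04, adjusted p = 0.06).

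Krt7 (chr15:101308924-101328194, plus strand), a type II keratin of ducts, was scarce, at 8 to 18 counts per healthy library. Its level was 1.13, 0.504 and 0.659 CPM in healthy liver, 3.23, 2.42 and 1.68 CPM in untreated HCC and 1.09, 1.28 and 1.57 CPM in miR-22-treated HCC. Treated and healthy livers overlapped, while the treated and untreated did not. Krt7 rose 3.17-fold in untreated HCC (log2 1.67, SE 0.381, adjusted p = 0.0024). The difference between treated and untreated HCC was -0.88 on the log2 scale (SE 0.354, adjusted p = 0.092) and that between treated HCC and healthy liver 0.78 (adjusted p = 0.15), and neither was called.

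Krt19 (chr11:100031636-100039491, minus strand), the type I keratin most used to recognize bile ducts on sections, was the exception. Its level was 2.83, 2.58 and 1.04 CPM in healthy liver, 5.81, 2.28 and 3.77 CPM in untreated HCC and 3.37, 1.59 and 6.61 CPM in miR-22-treated HCC. All 3 groups overlapped, and the spread within a group was large, with a coefficient of variation of 45.0%, 44.8% and 65.9%. The log2 fold change was 0.89 (95% interval -0.20 to 1.97, adjusted p = 0.15) in untreated HCC against healthy liver and -0.01 (95% interval -1.04 to 1.02, adjusted p = 0.99) in miR-22-treated against untreated HCC. The second interval leaves room for a change in either direction of the size called in other markers. Krt19 rested on 19 to 139 counts per library.

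Among the surface markers, Cd24a (chr10:43454280-43460264, plus strand), which encodes a small glycoprotein anchored by lipid, changed most. Its level was 2.14, 3.21 and 2.14 CPM in healthy liver, 96.7, 106 and 63.5 CPM in untreated HCC and 34.5, 35.1 and 59.5 CPM in miR-22-treated HCC. The groups did not overlap, though treated replicate 4 came close to untreated replicate 4. Cd24a rose 35.6-fold in untreated HCC (log2 5.15, SE 0.292, adjusted p = 4.8e-08) and fell by 1.04 on the log2 scale (SE 0.221, adjusted p = 0.0056) with miR-22, and treated livers stayed 17.3-fold above healthy ones (adjusted p = 6.8e-07). Cd24a overlaps Mtres1 on the opposite strand, which had 227 to 344 counts per library against 34 to 51 for Cd24a in healthy liver. The libraries do not keep strand, so part of the low healthy signal may be shared with that gene.

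Epcam (chr17:87943407-87958557, plus strand), the epithelial adhesion molecule of ducts and progenitors, was at 1.32, 1.32 and 1.54 CPM in healthy liver. It was at 19.6, 19.7 and 12.9 CPM in untreated HCC and 8.24, 6.12 and 12.2 CPM in miR-22-treated HCC, with the highest treated liver just below the lowest untreated one. Epcam rose 12.4-fold in untreated HCC (log2 3.63, SE 0.284, adjusted p = 5e-07). It fell by 0.96 on the log2 scale (SE 0.231, adjusted p = 0.01) with miR-22 and remained 6.35-fold above healthy liver (adjusted p = 2.1e-05). The fall stayed called whichever liver was left out, but close to the threshold. Its adjusted p was 0.05 without untreated replicate 3, 0.049 without untreated replicate 2 and 0.043 without treated replicate 3.

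Prom1 (chr5:44150962-44259395, minus strand), which encodes the membrane protein CD133, was at 7.92, 20.5 and 22.7 CPM in healthy liver, 90.0, 101 and 67.5 CPM in untreated HCC and 59.4, 49.0 and 55.7 CPM in miR-22-treated HCC. Healthy replicate 1 was well below the other 2 healthy livers, and the 3 groups did not overlap. Prom1 rose 5.03-fold in untreated HCC (log2 2.33, SE 0.280, adjusted p = 1.6e-05) and was 3.19-fold above healthy liver with miR-22 (adjusted p = 0.00059). The difference between treated and untreated HCC was -0.65 on the log2 scale (SE 0.260, adjusted p = 0.089), which was not called although every treated liver was below every untreated one. It was called without healthy replicate 1 (-0.66, adjusted p = 0.0065) and in the fit of the HCC groups alone (-0.66, adjusted p = 0.015). Over all alternatives its adjusted p ran from 1.7e-07, in the fit without a filter on low counts, to 0.27.

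Spp1 (chr5:104582165-104589235, plus strand) encodes osteopontin, a secreted phosphoprotein of ducts, activated macrophages and bone. Its level was 31.9, 24.7 and 23.7 CPM in healthy liver, 4546, 6077 and 3239 CPM in untreated HCC and 1883, 1527 and 2642 CPM in miR-22-treated HCC. The groups did not overlap. In the untreated HCC livers Spp1 took 0.363% to 0.742% of all counts and ranked 15th, 8th and 23rd of all genes by counts, and it ranked 49th, 67th and 33rd in the treated livers against 4853rd to 5844th in healthy ones. Spp1 rose 173-fold in untreated HCC (log2 7.43, SE 0.317, adjusted p = 6.9e-09), fell by 1.20 on the log2 scale (SE 0.241, adjusted p = 0.0041) to 43.7% of the untreated level with miR-22, and was still 75.3-fold above healthy liver (adjusted p = 4.6e-08).

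Macrophages also make osteopontin, so their markers are given beside Spp1. The summed level of 10 macrophage genes was 455 to 536 CPM in healthy liver, 803 to 906 CPM in untreated HCC and 825 to 860 CPM in treated HCC. Of these 10 genes, 6 were called higher in untreated HCC than in healthy liver, and 0 were called between the HCC groups. The part of macrophages in the Spp1 result was not tested. Blood cells carry CD24 as well. The summed level of 8 neutrophil genes was 1.83 to 4.53, 17.7 to 23.4 and 17.3 to 26.1 CPM in the 3 groups, and that of 6 B cell genes 6.26 to 11.4, 7.36 to 10.7 and 9.18 to 9.76 CPM. In healthy liver 2 of the 8 neutrophil genes had no count. The part of blood cells in the Cd24a result was not tested. Mesothelium, which also carries keratins, gave sums of 8.13 to 10.3, 6.99 to 10.3 and 8.41 to 14.7 CPM over 7 genes.

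Krt8 and Krt18, partners in 1 filament, lie next to each other on chr15 (101905133-101912917 on the minus strand and 101936615-101940462 on the plus strand), with 23697 bases between them. Krt8 was at 177, 181 and 199 CPM in healthy liver, 852, 647 and 683 CPM in untreated HCC and 468, 441 and 597 CPM in miR-22-treated HCC. Krt18 was at 195, 163 and 193 CPM, then 640, 494 and 478 CPM, then 339, 292 and 375 CPM. For both, the 3 groups did not overlap and the treated livers lay between the others.

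Krt8 rose 3.91-fold in untreated HCC (log2 1.97, SE 0.146, adjusted p = 3.1e-07) and Krt18 rose 2.93-fold (log2 1.55, SE 0.141, adjusted p = 1.7e-06). With miR-22, Krt18 fell by 0.68 on the log2 scale (SE 0.139, adjusted p = 0.0044). Krt8 changed by -0.54 (SE 0.141, adjusted p = 0.016), a fold of 1.45 that missed the threshold of 1.5, so the pair stood on either side of a call while their intervals, -0.84 to -0.23 and -0.98 to -0.38, overlapped widely. Krt8 passed the threshold without untreated replicate 3 (-0.62, adjusted p = 0.02) and without treated replicate 4 (-0.68, adjusted p = 0.0034). Without untreated replicate 2, Krt18 dropped under the fold threshold (-0.54, adjusted p = 0.023). Treated livers remained 2.70-fold above healthy liver for Krt8 (adjusted p = 1.1e-05) and 1.83-fold for Krt18 (adjusted p = 0.00046).

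The balance between the partners was followed through their count ratio. This ratio, Krt8 to Krt18, was 0.907, 1.12 and 1.03 in healthy livers, 1.33, 1.31 and 1.43 in untreated HCC and 1.38, 1.51 and 1.59 in miR-22-treated HCC. Every HCC liver was above every healthy liver, and the HCC groups overlapped. The ratio was not tested. A pseudogene of Krt8 took 2 to 22 counts per library, against 2818 to 18293 for Krt8.

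**Figure D2:**
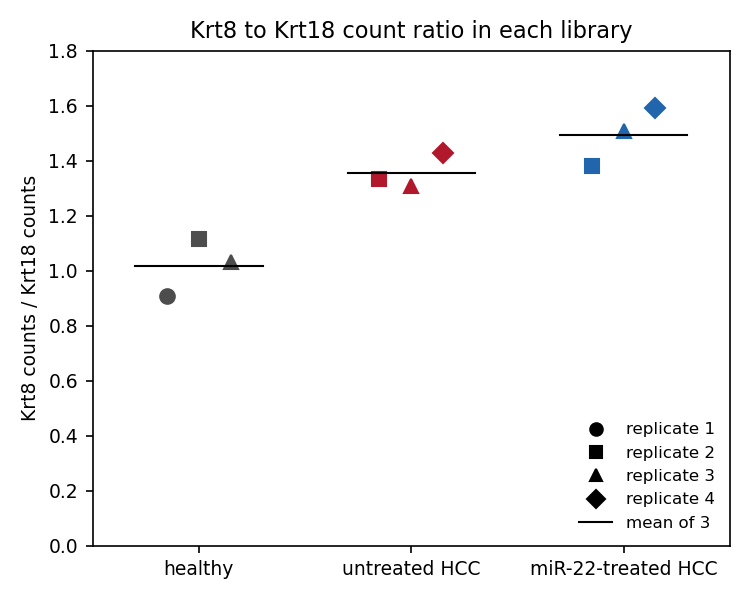
Ratio of Krt8 to Krt18 counts (vertical axis, no unit) in each liver of the 3 groups, with point shape for the replicate number and a line for the mean of 3. Healthy livers span 0.907 to 1.12, and the 6 HCC livers 1.31 to 1.59.

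**Figure D3:**
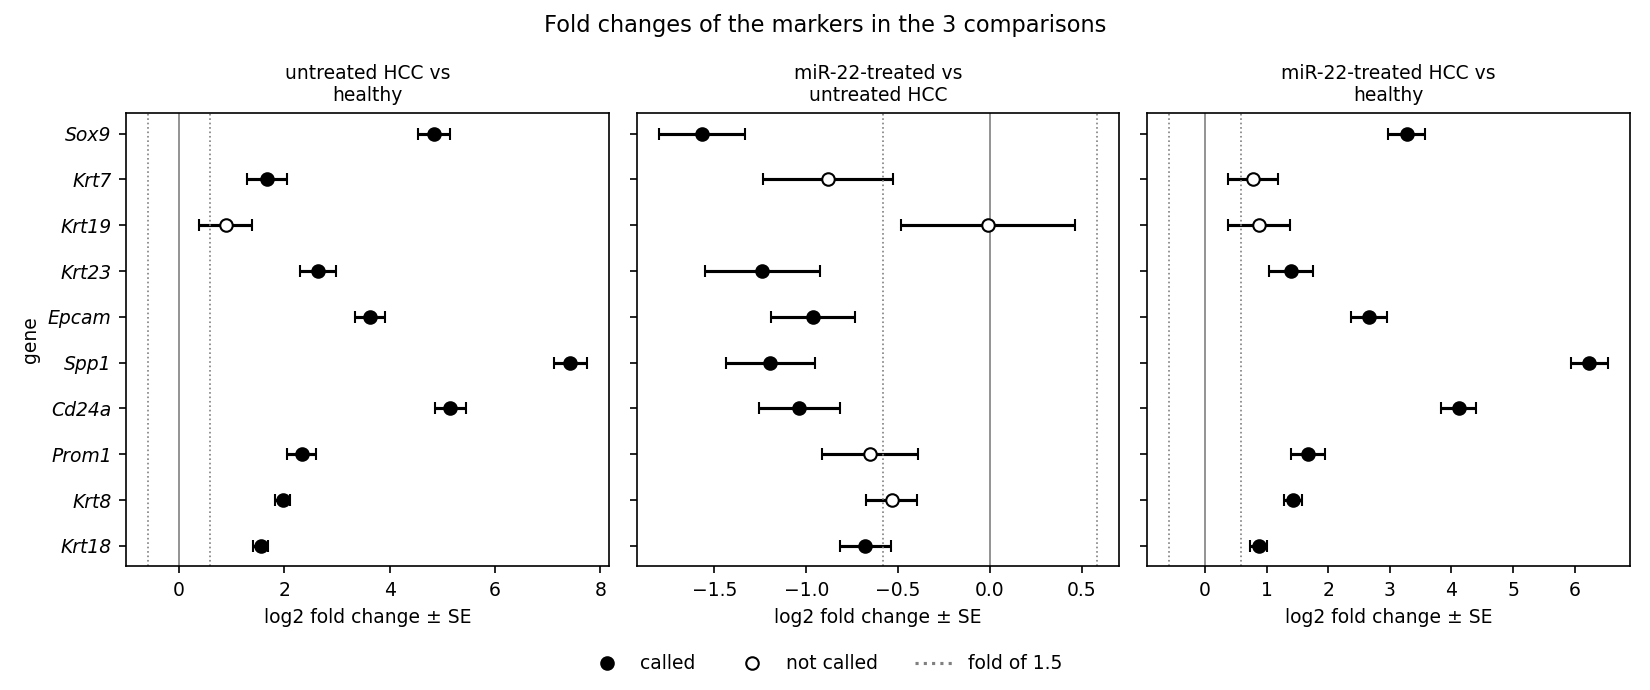
Log2 fold change with its standard error for the 10 markers in the 3 comparisons, on axes that differ between panels. Filled points were called (adjusted p under 0.05 and fold over 1.5), and dotted lines mark a fold of 1.5. Spp1 lies farthest right at 7.43 in untreated HCC against healthy liver, and Krt19 alone sits at about 0 between the HCC groups.

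Within the HCC groups the markers tended to follow the liver. In the treated group, replicate 4 was the highest liver for 9 of the 10 markers and replicate 3 the lowest for 7. In the untreated group, replicate 4 was the lowest for 7 and replicate 3 the highest for 6. Healthy livers showed no such leader, with replicate 1 the highest for 5 markers and the lowest for 5. These ranks share each library's scaling and cell makeup, and are given as a description.

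To set the markers side by side, CPM was divided by the length of each gene's canonical transcript. Per kilobase, healthy liver had Krt18 first (128 CPM per kb) and Krt8 second (94.9), then Spp1 (12.0), Prom1 (4.30), Cd24a (1.37), Krt19 (1.37), Epcam (0.799), Sox9 (0.730), Krt23 (0.588) and Krt7 (0.187). The keratin pair thus stood well apart from the rest, while each neighbouring pair from Cd24a through Krt19, Epcam and Sox9 to Krt23 did not differ beyond its spread. In untreated HCC the order per kilobase was Spp1 (2073 CPM per kb), Krt18 (374), Krt8 (372), Cd24a (48.8), Prom1 (21.7), Sox9 (20.8), Epcam (9.98), Krt23 (3.68), Krt19 (2.51) and Krt7 (0.597). Krt18 with Krt8, Prom1 with Sox9, and Krt23 with Krt19 were neighbours within their spread. In treated HCC it was Spp1 (905 CPM per kb), Krt8 (256), Krt18 (233), Cd24a (23.7), Prom1 (13.8), Sox9 (7.01), Epcam (5.07), Krt19 (2.45), Krt23 (1.54) and Krt7 (0.320), with Krt8 and Krt18, Sox9 and Epcam, and Krt19 and Krt23 within their spread. Krt7 was last in all 3 groups. The transcript that liver cells use may differ from the canonical one, which would move a gene along this scale.

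**Figure D4:**
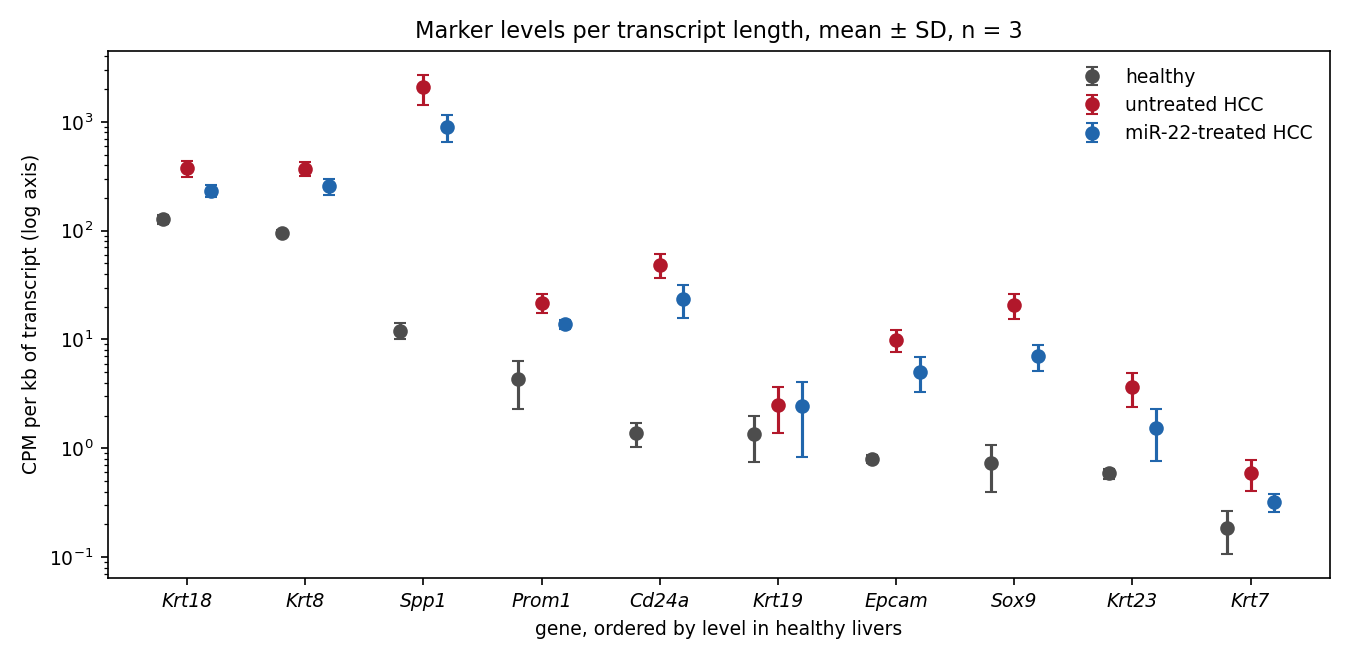
Level of each marker per kilobase of canonical transcript (CPM per kb, log axis; points are means and bars the SD of 3 livers), ordered by the healthy level. Spp1 moves from 12.0 in healthy liver to 2073 in untreated HCC and 905 in treated HCC, past Krt18 and Krt8.

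The markers moved against the hepatocyte genes. The summed level of 10 hepatocyte genes, such as albumin, was 131220 to 135880 CPM in healthy liver, 50307 to 63633 CPM in untreated HCC and 77185 to 96631 CPM in treated HCC. All 10 were called lower in untreated HCC than in healthy liver, where 18.1% of all tested genes were. With miR-22, 7 of them were called higher, where 8.32% of all tested genes were. The oncogene Akt1 moved with the markers, as given above. The part of the share of tumor tissue in the markers' differences was not tested. The summed level of stellate cell and fibroblast genes was 356 to 424, 848 to 978 and 702 to 800 CPM in the 3 groups. Of these 9 genes, 5 rose and 2, Dcn and Lrat, fell in untreated HCC, while with miR-22 Dcn and Lrat rose and Col1a1 fell.

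Other keratins were few. Of 50 keratin genes in the table, 35 had any count and 10 passed the filter, 5 of them markers. The 4 others with the highest mean level were Krt20, Krt4, Krt10 and Krt80. Krt20, a keratin of gut lining and of some tumors, had 0 counts in all 3 healthy livers, 163, 89 and 149 counts in untreated HCC and 33, 68 and 94 counts in treated HCC. Against a floor of 3 counts per library it was at least 31.7-fold higher in untreated HCC (adjusted p = 5.1e-06) and at least 19.7-fold higher in treated HCC (adjusted p = 4.4e-05), and the difference between the HCC groups was -0.68 on the log2 scale (adjusted p = 0.19). Krt4, a keratin of stratified lining such as the esophagus, had 0, 0 and 86 counts in the healthy livers, against 31 to 51 in untreated HCC. It was not called, but was without healthy replicate 3 (adjusted p = 0.00011 for untreated HCC against healthy liver). Krt10 and Krt80 were not called in any of the 3 comparisons.

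A further 4 lists of genes that work with the markers were read from the same fit, and the markers themselves are not in them. Over all tested genes, 22.7% were called higher and 18.1% lower in untreated HCC against healthy liver. With miR-22, 5.47% were called lower and 8.32% higher than in untreated HCC. Of 18 biliary transport, cilium and surface genes, 14 rose and 1 fell in untreated HCC against healthy liver, with a median log2 fold change of 2.21. With miR-22, 8 fell and 0 rose against untreated HCC, though Aqp1 was called higher without untreated replicate 4 (log2 0.61, adjusted p = 0.017). The 4 most abundant were Tm4sf4, a tetraspanin relative of the liver and gut, Anxa4, an annexin of duct cells, Aqp1, a water channel, and Fgfr2, a growth factor receptor. Tm4sf4 went from 92.6 ± 4.93 CPM to 502 ± 78.5 CPM and back to 293 ± 65.7 CPM (SD, n = 3), a log2 rise of 2.44 (adjusted p = 1.6e-07) and fall by 0.78 (adjusted p = 0.0042). Anxa4 rose by a log2 fold change of 1.85 (adjusted p = 1.4e-06), and its change of -0.57 with miR-22 (adjusted p = 0.021) was under the fold threshold, though it was called without untreated replicate 4 (-0.70, adjusted p = 0.0066) or treated replicate 4 (-0.76, adjusted p = 0.0026). Fgfr2 rose by 0.91 on the log2 scale (adjusted p = 2.9e-06). Aqp1, which liver endothelium also carries, was the 1 gene of this list that fell in untreated HCC, by 0.82 on the log2 scale (adjusted p = 0.00075), and the summed level of 7 endothelial genes was 341 to 424 CPM in healthy liver, 218 to 275 CPM in untreated HCC and 285 to 367 CPM in treated HCC. Of these 7 genes, 3 (Stab2, Kdr and Clec4g) fell in untreated HCC and 4 (Cdh5, Pecam1, Vwf and Lyve1) were not called, and the part of endothelium in the Aqp1 result was not tested. Cftr, the chloride channel of cholangiocytes, lies outside the naming rule and was picked after its values were seen: it had 3, 3 and 2 counts in healthy liver, 625, 1051 and 441 in untreated HCC and 118, 89 and 295 in treated HCC, a fall by 1.79 on the log2 scale with miR-22 (adjusted p = 0.0042).

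Of 12 biliary and epithelial transcription factors, 10 rose and 1, Onecut1, fell (log2 -1.05, adjusted p = 0.0057) in untreated HCC, with a median log2 fold change of 2.19. With miR-22, 7 fell and 0 rose. Sox4, a relative of Sox9 that acts with it in duct formation, was at 2.94 ± 0.752 CPM in healthy liver, 149 ± 32.6 CPM in untreated HCC and 57.2 ± 20.5 CPM in treated HCC (SD, n = 3). It rose by a log2 fold change of 5.65 (adjusted p = 3.3e-08) and fell by 1.37 (adjusted p = 0.0015). Hes1, a target of Notch signaling, rose by 1.68 on the log2 scale (adjusted p = 0.0026) and fell by 1.14 (adjusted p = 0.046), a call lost without any 1 of the 6 HCC livers (adjusted p = 0.052 to 0.14). Its healthy level was uneven (14.4 ± 11.3 CPM, SD, n = 3), and without healthy replicate 1 the difference between treated HCC and healthy liver went from 0.55 on the log2 scale, not called (adjusted p = 0.3), to 1.40 (adjusted p = 0.0011). Onecut2 was the most abundant of the list and was not called in any comparison.

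Of 16 progenitor and ductular reaction genes, 13 passed the filter, and 8 of these rose and 2 fell in untreated HCC, with a median log2 fold change of 2.28. Those that fell were Lgr5 (log2 -1.09, adjusted p = 0.0046), a Wnt target of hepatocytes around the central vein and of stem cells, and Dmbt1. With miR-22, 7 fell and 1 rose. Afp, the fetal serum protein, was at 14.2 ± 3.23, 1430 ± 500 and 779 ± 213 CPM in the 3 groups (SD, n = 3), a log2 rise of 6.65 (adjusted p = 2.1e-08) and a fall by 0.88 (adjusted p = 0.026). Gpc3, a fetal and tumor glypican, rose by 6.55 on the log2 scale (adjusted p = 4.8e-09) and fell by 0.68 (adjusted p = 0.013). Tnfrsf12a, the receptor for TWEAK, which drives progenitor growth, rose by 4.55 (adjusted p = 9.5e-09) and fell by 0.99 (adjusted p = 0.0013). The falls of Afp and Gpc3 lost their calls without untreated replicate 2 (adjusted p = 0.13 and 0.057) or without treated replicate 3 (adjusted p = 0.11 and 0.06), and Afp also without untreated replicate 3 (adjusted p = 0.054).

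Dmbt1, a mucosal scavenger protein, was the 1 gene of that list that rose with miR-22, by 4.79 on the log2 scale (adjusted p = 0.02), and it rested on 1 liver. It had 188, 42 and 2976 counts in the treated livers, 24, 47 and 63 in untreated HCC and 877, 788 and 51 in healthy liver. Its fall in untreated HCC (log2 -4.24, adjusted p = 0.015) lost the call without untreated replicate 2 (adjusted p = 0.056). Without treated replicate 4 the rise was not called (1.85, adjusted p = 0.19), nor was it without untreated replicate 2 or 3 (adjusted p = 0.081 and 0.077).

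Of 14 epithelial junction genes, 12 passed the filter, and 7 of these rose and 1, Esrp2, fell (log2 -0.78, adjusted p = 5.8e-05) in untreated HCC, while 4 fell and 0 rose with miR-22. Cdh1, or E-cadherin, rose by 1.42 on the log2 scale (adjusted p = 1.3e-07) and its change of -0.51 with miR-22 (adjusted p = 0.0022) was under the fold threshold. Dsp, the desmosome plaque protein, rose by 0.82 (adjusted p = 1.6e-05), and Dsg2 and F11r were not called in any comparison. When single livers were left out, the counts of genes called lower with miR-22 ranged from 6 to 8 for transport genes, 4 to 8 for transcription factors, 3 to 7 for progenitor genes and 1 to 5 for junction genes, the lowest each time without treated replicate 3. Transport genes were also at 6 without untreated replicate 2 or 3, and transcription factors at 4 without untreated replicate 3. Progenitor genes were at 4 without untreated replicate 2 or 3, and junction genes at 2 without either of them. Without treated replicate 2, the counts of the 4 lists were 8, 5, 7 and 2. The share of all tested genes called lower moved too. It was 5.47% with all livers, 4.31% without treated replicate 2 and 2.56% without treated replicate 3.

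**Figure D5:**
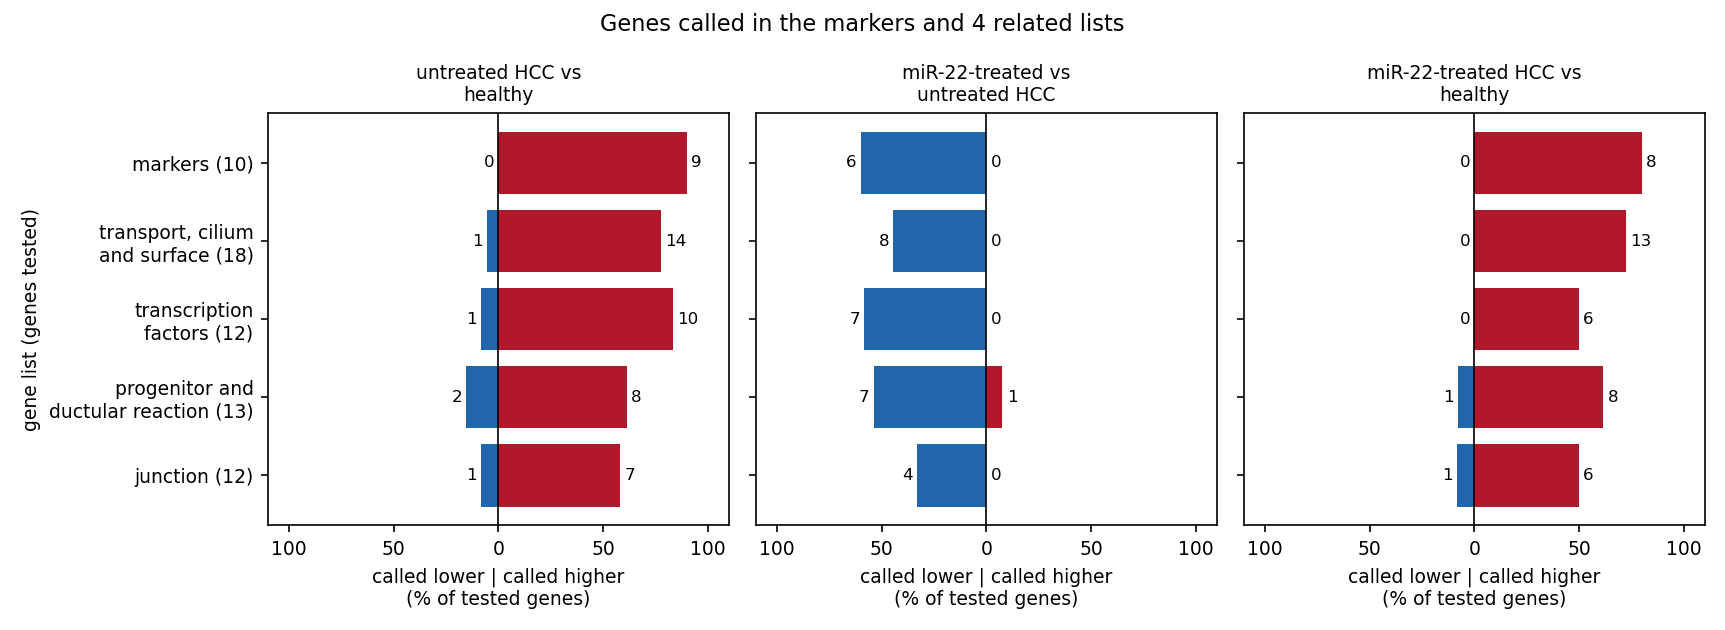
Share of tested genes called lower (left of 0) or higher (right of 0) among the markers and the 4 related lists, in percent, for the 3 comparisons, with the number of genes at each bar's end and the number tested beside each list's name. In the middle panel 6 of 10 markers were called lower with miR-22 and 0 higher.

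The genes whose pattern over the 9 libraries was most like that of 3 of the markers were found by the root mean square difference of log2 CPM centred on each gene's mean. For Sox9 they were Cxcl2 (0.242), Ddit4l (0.266) and Sstr2 (0.297). Cxcl2 and Sstr2 were scarce, at a mean of 0.0419 and 0.0785 CPM in healthy liver. The prior count of 2 used for log2 CPM narrows differences at such levels. Their fitted log2 rises in untreated HCC were 6.05 and 5.82, beside 4.84 for Sox9. For Epcam they were Jag1 (0.168), a ligand of Notch receptors, Sparc (0.170), a matrix protein, and Slco3a1 (0.172), an organic anion transporter. For Krt19 the nearest genes were farther away, namely Gm5122 (0.345), Pdk4 (0.379) and Nfatc4 (0.385), of which Gm5122 averaged only 0.360 CPM.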

How the data were processed

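RNA from 9 livers was sequenced with non-directional paired-end libraries. Salmon and tximport were used by the authors to turn reads into gene totals on GRCm39 with GENCODE release 25, as the study's methods state, and the deposited table holds whole-number counts per gene (unit: counts). A deposited table of normalized values was not used. FastQC 0.11.7 and DESeq2 1.18 are named in the submitters' processing notes.

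Counts were fitted here for all genes with edgeR 4.0.16 (R 4.3.3): filterByExpr left 15717 of 55401 genes, TMM scaling, and the quasi-likelihood F test (two-sided) over all 9 libraries in 3 groups with no covariate. Calls needed a Benjamini-Hochberg adjusted p under 0.05 over all tested genes and a fold over 1.5, the study's thresholds. Standard errors are the log2 fold change divided by the square root of F. Alternatives were other scalings (RLE, upper quartile), DESeq2 1.42.0, no filter or at least 10 counts in every library, fits of the 2 groups compared, a replicate block, leaving out each replicate, no fold threshold, and glmTreat. Leaving out replicates for the related lists was added after seeing the data. Totals of 16664659 to 23908392 counts per library set the counting precision, and intervals cover the spread between these libraries.

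The markers and lists were chosen with earlier results of these data known, so their direction is not independent evidence. Named genes were the 10 markers, the 4 other keratins and the up to 4 genes of each related list with the highest mean CPM, and the 3 genes nearest in pattern to Sox9, Krt19 and Epcam (a gene of the transcription factor list is not reported here); Cftr, and the genes named as the 1 or 2 that went the other way in a list, were picked after their values were seen. Gene positions and transcript lengths came from GENCODE vM39 (GRCm39), and miRNA and promoter sequences from RefSeq (GRCm38.p6). Labels gave replicates 2 to 4 in both HCC groups and 1 to 3 in healthy mice; the numbers did not pair the livers.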

Additional observations from a re-analysis of the deposited data

How the results depend on the processing

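Of 477 recomputed values for single markers, 462 kept their direction and their side of the thresholds, 4 lost the call, 8 gained it and 3 turned direction. The 3 that turned were all Krt19 between treated and untreated HCC, at 0.36, 0.08 and 0.35 on the log2 scale without untreated replicate 2, treated replicate 2 and treated replicate 3, in a range of -0.66 to 0.36 over the livers left out. The count of markers called in untreated HCC against healthy liver stayed at 9 without any 1 liver, that in treated HCC against healthy liver at 8, and that of markers lower with miR-22 ranged from 5 to 7. With glmTreat the last count was 1 in place of 6, and that in treated HCC against healthy liver 6 in place of 8, without Krt23 (adjusted p = 0.054) and Krt18 (adjusted p = 0.06). The replicate numbers did not pair the livers: same-numbered untreated and treated livers had correlations of deviations of -0.12, -0.13 and -0.24. With a replicate block, where healthy replicate 1 is alone in its number, the counts were 9, 7 and 7, where 20.8%, 3.93% and 13.8% of all tested genes were called in those directions, and Krt23 in treated HCC against healthy liver was 1.13 (adjusted p = 0.096). Without a filter on low counts, Krt19 was called in both comparisons with healthy liver (adjusted p = 0.0065 and 0.012, the lowest of ranges that reached 0.46 and 0.77 over the alternatives). That fit gave far smaller adjusted p-values for several markers, such as 2.1e-234 for Sox9 in untreated HCC against healthy liver. The main fit gave 8.3e-08 there, so calls without the filter carry less weight. With the limit of at least 10 counts in every library, Krt7 was not tested. Over all genes, glmTreat called 413 genes higher and 55 lower between the HCC groups in place of 1308 and 859. Leaving out treated replicate 3 gave 1018 and 415, untreated replicate 3 1015 and 481, untreated replicate 2 1088 and 565, and no fold threshold 2140 and 1637. Krt7 rested on as few as 8 counts per library and Krt19 on as few as 19.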
